A study of Mus musculus with 8 samples.

Results

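Immediate early genes are transcribed within minutes of a stimulus, before any new protein has to be made, and 10 of them were followed here in the lacrimal gland (LG) of mice under calorie restriction (CR). The members were chosen by symbol, as Fos, Fosb, Jun, Junb, Egr1, Ier2, Ier3, Atf3, Nr4a1 and Dusp1, and all 10 were found among the 24552 genes of the count table. LG RNA came from female C57BL/6J mice that were 10 to 11 months old at collection and had been fed for 4 months either ad libitum (AL, n = 4) or a diet cut by 40% (CR, n = 4). The methods describe separate cohorts of CR mice, one of them fed once daily in the evening, whereas the labels do not say which cohort a library came from. The hour of tissue collection is not given in the sources used here. Each library was made from the RNA 3′ ends of an exorbital LG, and neither the labels nor the methods mention pooling of animals.

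The genes of this class respond to growth factors, neurotransmitters, calcium, cyclic AMP and cell stress. Kinases of the MAP kinase cascade and of the cyclic AMP pathway act on transcription factors that already sit on their promoters, among them serum response factor (SRF) and CREB, and the transcripts decay within a short time. Many of the products are transcription factors in their turn, and others, such as the phosphatase encoded by Dusp1, switch the signal off. In exocrine glands the nerves that drive secretion act through the same second messengers, and tissue handling and dissociation are known to induce these genes as well.

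Library totals ranged from 12051881 to 22156511 counts in AL and from 13720079 to 19310319 in CR. Levels are given in CPM, the counts of a gene scaled to a common library size with RLE factors, and 3 counts, taken as the floor, correspond to 0.152 to 0.231 CPM in AL and to 0.166 to 0.212 in CR. The 10 markers of the LG were all detected, with summed levels of 176000 to 195000 CPM in AL and 80200 to 182000 in CR. Most of that sum is Obp1a (158000 and 92100 CPM on average), and over the list 5 of 10 markers were fitted higher and 5 lower in CR, with Sox10 called higher (log2 fold change 2.13, edgeR adjusted p = 0.00746). Transcripts of 6 parotid marker genes were also present: their mean log2 level, the parotid level, ran from 1.89 to 6.99 in AL and from 9.15 to 12.9 in CR, lowest in replicate 4 of each diet. Whether they came from parotid tissue was not tested. The fits were repeated with replicate 4 of both diets left out, after which the parotid level was still apart, at 5.21 to 6.99 in AL and 9.81 to 12.9 in CR. They were also repeated with the parotid level as a covariate. That fit separates diet from parotid level poorly, because the diets do not overlap in it. For skeletal muscle transcripts, the fits were repeated with CR replicates 2 and 4 left out.

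No immediate early gene passed the thresholds for a difference between CR and AL. Of the 10 members, 8 passed the filter on low counts, and 0 of 8 were called, for which a 1.5-fold change in either direction and an adjusted p below 0.05 were required (edgeR quasi-likelihood test, Benjamini-Hochberg over 11211 genes). Across all genes tested, 1.98% were called, 1.2% higher and 0.785% lower in CR. Ier3 alone among the 8 members had an unadjusted p under 0.05, which is 12.5% beside 16.7% of all genes. DESeq2 and limma voom with sample quality weights called 1 member each, which was Ier3, where these tools called 4.36% and 3.54% of all genes.

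The fitted differences went in both directions. Nr4a1, Ier3, Dusp1 and Junb were fitted higher in CR, while Jun, Egr1, Ier2 and Atf3 were fitted lower. The log2 fold changes of the 8 tested members had a median of 0.002, beside 0.011 for all genes, and ran from -0.58 for Atf3 to 1.07 for Nr4a1. The AL and CR libraries overlapped for every tested member, and they were apart for 9.79% of all genes, so 0 of 8 is near the background. The precision differed widely between members: the standard error of the log2 fold change was 0.24 for Jun and Junb and 0.85 for Nr4a1, against a median of 0.31 over all genes. With replicate 4 of both diets left out, every tested member kept its direction and 0 of 8 were called by edgeR (5.84% of all genes), with log2 fold changes of 1.63 for Nr4a1, 1.03 for Ier3, 0.72 for Dusp1, 0.10 for Junb, -0.27 for Jun, -0.38 for Egr1, -0.70 for Atf3 and -0.92 for Ier2.

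**Figure D1:**
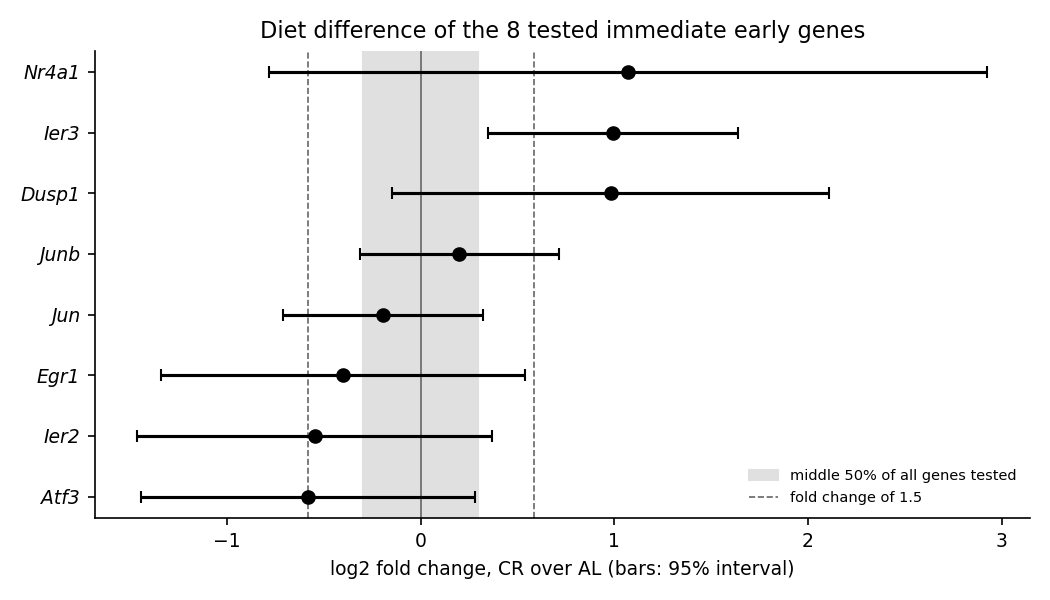
Log2 fold change of each tested immediate early gene, CR over AL (x axis), with its 95% interval from the edgeR fit. The grey band holds the middle 50% of all tested genes and the dashed lines mark a 1.5-fold change; of the 8 intervals, that of Ier3, 0.35 to 1.64, is the one that leaves out 0.

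Promoters of 4 members are shown, of Nr4a1, Dusp1 and Ier3 because these had the largest fitted increases and of Fos as the best-known case. They are read for the letters to which CREB family factors are known to bind, which most but not all of the members' windows hold. RefSeq promoters (GRCm38.p6) were matched for 8 of 10 members, all but Egr1 and Ier2, and the 250 bases before the annotated start are printed 5′ to 3′ on the strand of the gene. The RefSeq starts used for Nr4a1, Dusp1 and Ier3 lie inside the longer GENCODE genes. Capitals mark the cyclic AMP response element (CRE, TGACGTCA) and its core TGACG on either strand, where the core on the other strand reads CGTCA and every CRE also holds the core. The Ier3 window has neither and is printed without capitals.
Fos, chr12:85473640-85473889, plus strand: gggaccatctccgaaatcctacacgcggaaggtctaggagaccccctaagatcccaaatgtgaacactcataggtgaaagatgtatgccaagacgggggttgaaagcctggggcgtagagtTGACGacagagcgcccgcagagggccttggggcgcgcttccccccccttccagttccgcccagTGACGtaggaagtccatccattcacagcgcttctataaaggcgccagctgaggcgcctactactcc
Nr4a1, chr15:101266596-101266845, plus strand: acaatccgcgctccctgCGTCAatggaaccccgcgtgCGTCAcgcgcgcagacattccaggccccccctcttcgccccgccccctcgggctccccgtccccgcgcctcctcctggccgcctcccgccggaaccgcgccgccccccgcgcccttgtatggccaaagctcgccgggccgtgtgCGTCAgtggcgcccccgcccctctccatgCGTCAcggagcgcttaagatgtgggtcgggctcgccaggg
Dusp1, chr17:26508473-26508722, minus strand: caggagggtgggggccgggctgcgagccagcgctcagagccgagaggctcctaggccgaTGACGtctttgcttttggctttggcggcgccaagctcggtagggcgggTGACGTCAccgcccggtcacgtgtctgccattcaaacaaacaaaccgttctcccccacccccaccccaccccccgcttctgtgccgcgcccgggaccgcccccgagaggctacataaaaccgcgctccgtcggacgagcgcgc
Ier3, chr17:35821463-35821712, plus strand: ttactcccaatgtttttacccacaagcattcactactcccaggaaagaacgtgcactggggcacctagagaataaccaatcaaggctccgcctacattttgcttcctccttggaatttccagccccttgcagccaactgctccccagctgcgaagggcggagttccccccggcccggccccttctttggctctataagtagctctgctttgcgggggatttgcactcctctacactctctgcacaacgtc

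The CRE core was present in the windows of 6 of 8 members, namely Fos, Fosb, Junb, Atf3, Nr4a1 and Dusp1, and in 17.8% of 32851 promoter windows of the same length. The full CRE was found in the Dusp1 window and in 1.55% of all windows. An EGR site, searched as GCGNGGGCG on both strands, occurred in Fosb and Nr4a1 and in 4.7% of all windows. A site for NF-kB occurred in Fos, Fosb and Ier3 and in 7.25% of all windows, and TATAAA in Fos and in 12.4%. The AP-1 site TGANTCA and the CArG box, to which SRF binds, were in the windows of 0 of 8 members, and in 6.75% and 1.47% of all windows. The matches describe letters in a short window and were not tested as sites. Bases outside the windows were not searched, and Egr1 and Ier2 had no window. The 0 of 8 for the AP-1 site and the CArG box therefore does not show that the members lack them.

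The AP-1 transcription factor is a dimer of a Fos protein with a Jun protein, or of Jun proteins. Of its Fos subunits, the members Fos and Fosb were barely detected in these LGs, whereas the relative Fosl2, given below, was counted in every library. Fos (Gene ID 14281, chr12:85473890-85477273, plus strand, GRCm38) was counted 11, 7, 2 and 15 times in the 4 AL libraries and 3, 7, 3 and 12 times in the 4 CR libraries. In CPM these were 0.847, 0.429, 0.146 and 0.76 in AL and 0.212, 0.414, 0.186 and 0.666 in CR. The 2 diets covered much the same range, and 3 libraries were at or under the floor of 3 counts. The mean was 0.545 ± 0.322 CPM in AL and 0.369 ± 0.222 in CR (SD, n = 4 each; exact permutation test, two-sided, p = 0.371, adjusted over Fos and Fosb 0.714), where the smallest p that 4 against 4 allow is 0.0286.

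Fosb (Gene ID 14282, chr7:19302696-19310051, minus strand) gave 0, 0, 1 and 0 counts in AL and 2, 0, 1 and 0 in CR, so that all 8 libraries lay at or under the floor. A difference in Fosb was not detectable at this depth.

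The Jun subunits were detected in every library. Jun (Gene ID 16476, chr4:95049034-95052222, minus strand) stood at 23.4, 21.6, 26.6 and 18.3 CPM in AL and at 27.3, 11.8, 20.6 and 18.7 CPM in CR. The highest and the lowest of the 8 values were both from CR. The means were 22.5 ± 3.44 and 19.6 ± 6.38 CPM (SD, n = 4 each), and the log2 fold change was -0.20 (SE 0.24, 95% interval -0.71 to 0.32, adjusted p = 0.761). For Junb (Gene ID 16477, chr8:84974484-84978718, minus strand), 9.7, 12.1, 10.4 and 10.9 CPM were measured in AL and 7.21, 14.3, 13.1 and 14.9 CPM in CR. Here 3 CR libraries were above every AL library and the CR library of replicate 1 was below them all. Junb had a log2 fold change of 0.20 (SE 0.24, 95% interval -0.31 to 0.71, adjusted p = 0.749). Of all tested members, Jun and Junb had the narrowest intervals, and both leave out a doubling or halving in either direction.

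The last 173 exon bases of Junb are shared with Prdx2, a peroxiredoxin gene on the other strand, and the sources used here do not state the strand setting of the counting. Prdx2 stood at 29.2 ± 2.03 CPM in AL and 33.0 ± 2.45 in CR (log2 fold change 0.18, edgeR adjusted p = 0.619). Without strand, reads of the 2 genes could not be told apart there. Jun and Dusp1 overlap genes on the other strand as well, but at least 2500 bases from the 3′ end, where this method places few reads. On the transcribed strand, none of the 10 members shared a 75-base window of its last 600 bases with the transcripts of another gene.

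Atf3 (Gene ID 11910, chr1:191170296-191218039, minus strand), a stress-induced factor that pairs with Jun proteins, had the lowest fitted change of the tested members. Its levels were 1.85, 1.9, 2.26 and 2.38 CPM in AL and 0.777, 1.36, 1.55 and 1.89 CPM in CR. Of the CR libraries, 3 lay below every AL library and replicate 4 lay inside the AL range. Atf3 averaged 2.1 ± 0.263 CPM in AL and 1.39 ± 0.464 in CR (SD, n = 4 each; log2 fold change -0.58, SE 0.40, 95% interval -1.45 to 0.28, adjusted p = 0.514), from 24 to 47 counts per AL library and 11 to 34 per CR library. With the parotid level as a covariate the fitted value was 0.02. That level did not overlap between the diets, so no direction of Atf3 is read from this fit.

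**Figure D2:**
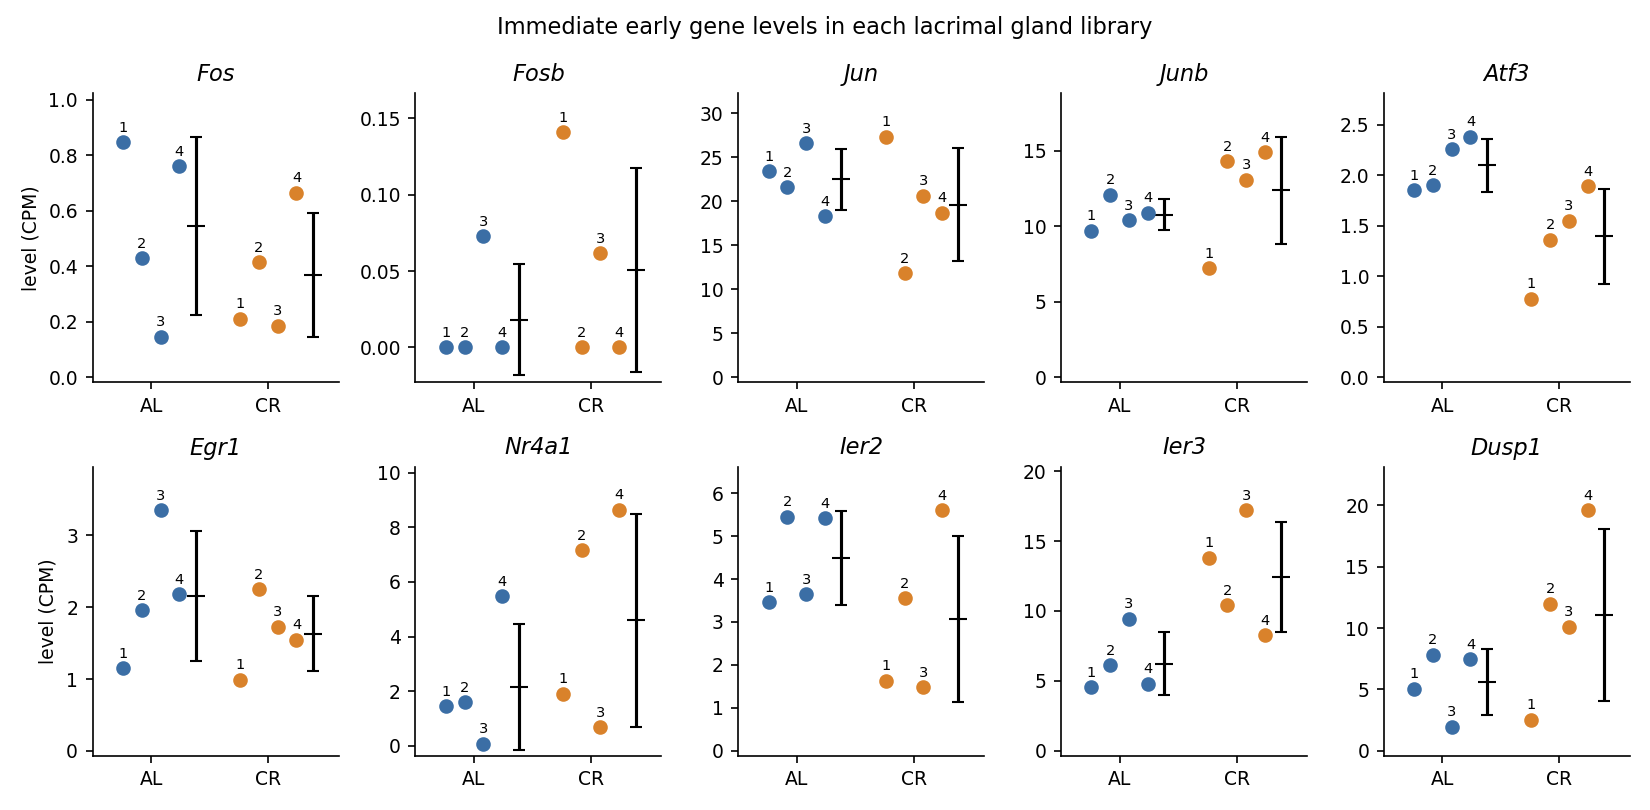
Level of each immediate early gene (CPM, y axis) in the AL (blue) and CR (orange) libraries. Each point is a library and carries its replicate number, and black bars give the mean ± SD of 4; in Ier3 the CR replicate 4, at 8.27 CPM, lies below the AL replicate 3, at 9.46 CPM, and the other 3 CR points lie above all AL points.

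Egr1 and Nr4a1 encode transcription factors of other families, a zinc finger protein and an orphan nuclear receptor. Egr1 (Gene ID 13653, on chromosome 18 from 34859823 to 34864984, plus strand) stood at 1.15, 1.96, 3.35 and 2.18 CPM in AL and 0.989, 2.25, 1.73 and 1.55 CPM in CR. The CR libraries of replicates 2, 3 and 4 lay inside the AL range, and CR replicate 1 lay below it. Its log2 fold change was -0.40 (SE 0.43, 95% interval -1.34 to 0.54, adjusted p = 0.716).

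Nr4a1 (Gene ID 15370, chr15:101254269-101274795, plus strand) varied more within each diet, relative to its mean, than any other tested member. It was measured at 1.46, 1.59, 0.0728 and 5.47 CPM in AL and at 1.91, 7.16, 0.68 and 8.65 CPM in CR. Replicate 3 was the lowest and replicate 4 the highest library in both diets, and within CR the highest value was 12.7 times the lowest. The means of 2.15 ± 2.32 and 4.6 ± 3.9 CPM (SD, n = 4 each) thus carry SDs close to their own size. The log2 fold change of Nr4a1 was 1.07 with an SE of 0.85 (95% interval -0.79 to 2.93, adjusted p = 0.593), and 98.5% of all tested genes had a smaller SE. The value was 0.57 without CR replicate 4 and 2.13 without AL replicate 4, neither past the threshold, and 3.04 with the parotid covariate (adjusted p = 0.575). The AL value of replicate 3 is a single count, under the floor.

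The CR libraries high in Nr4a1 were also high in skeletal muscle transcripts, whereas in AL the muscle sum was as high in replicate 1 as in replicate 4. The summed level of 4 muscle markers was 7.31, 0.797, 2.33 and 6.94 CPM in AL and 1.63, 51, 1.92 and 31 CPM in CR, so that CR replicates 2 and 4 stood apart from the rest, and Ckm and Myh4 were at 0 in CR replicate 1. With these 2 CR libraries left out, a choice made after seeing the data that leaves 2 CR libraries, Nr4a1 had a log2 fold change of -0.76 (edgeR adjusted p = 0.754) and Dusp1 one of 0.17 (adjusted p = 0.917). The values of Jun (0.10) and Junb (-0.09) changed sign as well. Ier3 was called at 1.32 (adjusted p = 0.0419, with 3.79% of all genes called) and Ier2 had a value of -1.53 (adjusted p = 0.0728). These 2 libraries held the highest Nr4a1 levels of CR, so leaving them out had to lower its fitted value. No direction of Nr4a1 is therefore read from this fit, and the part of muscle in its level was not tested.

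Ier2 and Ier3 were fitted in opposite directions. Ier2 (Gene ID 15936, chr8:84661331-84662852, minus strand), a nuclear protein of the immediate early response, was at 3.46, 5.45, 3.64 and 5.42 CPM in AL and at 1.63, 3.55, 1.48 and 5.6 CPM in CR. Replicates 1 and 3 of CR were below all AL libraries, while CR replicate 4 was above them. The log2 fold change of Ier2 was -0.55 (SE 0.42, 95% interval -1.47 to 0.37, adjusted p = 0.577). The value was larger without CR replicate 4 (-1.02, adjusted p = 0.17) and by limma voom (-0.96, adjusted p = 0.181), and it was 0.17 with the parotid covariate.

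Ier3 (Gene ID 15937, chr17:35821684-35822923, plus strand), which encodes a small protein that modulates survival signalling downstream of NF-kB and ERK, had the smallest p-value of the members. Its levels were 4.54, 6.13, 9.46 and 4.81 CPM in AL and 13.8, 10.4, 17.2 and 8.27 CPM in CR. All CR libraries but replicate 4 exceeded every AL library. The mean was 6.24 ± 2.26 CPM in AL and 12.4 ± 3.91 in CR (SD, n = 4 each), a fold change of 1.99. On the log2 scale this was 0.99 with an SE of 0.30 and a 95% interval of 0.35 to 1.64 (edgeR, unadjusted p = 0.00578, adjusted p = 0.111).

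The call of Ier3 differed between tools, with libraries left out and with replicate number as a block. With that block edgeR called Ier3 at 0.99 (adjusted p = 0.0185, with 6.24% of all genes called). It was called by DESeq2 (log2 fold change 0.998, adjusted p = 0.0427) and by limma voom with sample quality weights (1.104, adjusted p = 0.0417). It was also called by edgeR when CR replicate 4 was left out (1.15, adjusted p = 0.0356, with 6.14% of all genes called), whereas leaving out replicate 4 of both diets gave 1.03 and an adjusted p of 0.0711. Leaving out each library in turn kept the log2 fold change between 0.80 and 1.26. With the parotid covariate, which differs between the diets, the log2 fold change was 0.80 and the adjusted p 0.701, and 0 genes of the whole table were then called, with 1075 at an unadjusted p under 0.05.

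Dusp1 (Gene ID 19252, chr17:26505590-26562128, minus strand) encodes a phosphatase that inactivates MAP kinases and is itself induced by stress, cyclic AMP and glucocorticoids. The gene stood at 5.08, 7.84, 1.97 and 7.45 CPM in AL and at 2.54, 12.0, 10.1 and 19.6 CPM in CR. Replicates 2, 3 and 4 of CR exceeded all AL libraries, and CR replicate 1 was lower than all AL libraries but replicate 3. Dusp1 averaged 5.58 ± 2.7 CPM in AL and 11.1 ± 7 in CR (SD, n = 4 each), a fold change of 1.97. The log2 fold change of 0.98 had an SE of 0.52 and a 95% interval of -0.15 to 2.11 (adjusted p = 0.381). It was 0.55 without CR replicate 4, 0.52 by limma voom, 1.31 without CR replicate 1 and 2.04 with the parotid covariate. The fold change of Dusp1 was close to that of Ier3, with a larger SE, and Dusp1 was not called under any alternative tried.

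The members did not vary together as a single set across the LGs. Over the 28 pairs of tested members, the correlation of log2 levels across the 8 libraries had a median of -0.02 and ran from -0.78 for Ier2 with Ier3 to 0.85 for Junb with Dusp1. In all, 4 pairs were above 0.5 and 5 below -0.5. Each of the 5 held Jun or Ier3, whereas the 4 held neither. The same 8 libraries, which include both diets and differ in depth and in the level of parotid markers, underlie all pairs, so these values are descriptions. When each member was standardized over the 8 libraries, the mean over members was -0.37, 0.16, 0.05 and 0.21 SD in AL and -0.75, 0.16, -0.01 and 0.56 SD in CR. The lowest library was replicate 1 and the highest replicate 4 in both diets.

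**Figure D3:**
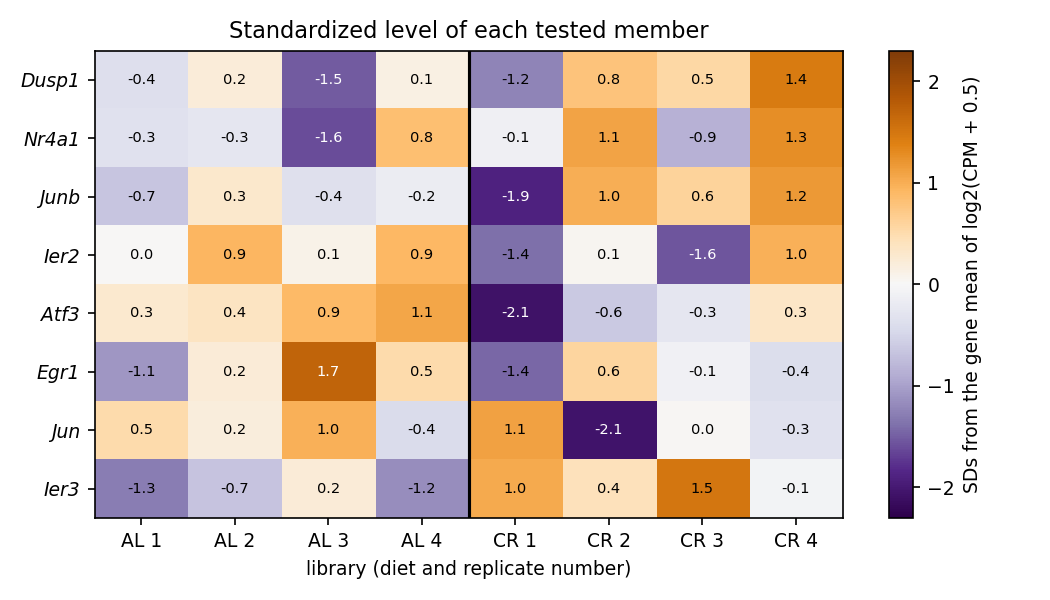
Standardized log2 level of the tested immediate early genes (rows) in each library (columns), in SD units over the 8 libraries. CR replicate 4 has the highest mean over members, 0.56 SD, and CR replicate 1 the lowest, -0.75 SD; no column is high or low for every gene.

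Among all other tested genes, those whose log2 level followed this mean most closely were Arnt and Pcyox1 (Pearson r = 0.965 each), Xaf1 (0.95), Mylip (0.948) and Ttc32 (0.937), over 8 libraries and as a description. Their log2 fold changes between the diets were small, from -0.05 to 0.27.

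Relatives of the members and their upstream regulators were examined as 6 lists of 93 genes, of which 72 were tested. None of the 72 was called by edgeR, beside 1.98% of all genes. Of the 72, 13 (18.1%) had an unadjusted p under 0.05, 9 higher and 4 lower in CR, beside 16.7% of all genes. Their median log2 fold change was 0.04, and the AL and CR libraries did not overlap for 6 of them, Dusp2, Hbegf, Cxcl1, Srf, Map2k7 and Rps6ka1, which is 8.33% beside 9.79% of all genes. DESeq2 called 3 of these genes, Dusp2, Fosl2 and Nr4a3 (4.36% of all genes), and limma voom called 0 (3.54% of all genes). Without CR replicate 4, edgeR called Fosl2, Nr4a3 and Trib1 (6.14% of all genes). With replicate 4 of both diets left out, Fosl2, Nr4a3 and Klf10 were called (5.84% of all genes), and without CR replicates 2 and 4 Nr4a3 and Trib1 (3.79%).

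Among the AP-1 relatives, 4 of 7 were tested, with a median log2 fold change of 0.13. Fosl2, a Fos relative with slower kinetics, stood at 3.31, 4.47, 2.4 and 5.47 CPM in AL and at 7.14, 10.8, 10.1 and 4.99 CPM in CR, where replicate 4 lay inside the AL range. The log2 fold change of Fosl2 was 1.07 (SE 0.33, edgeR adjusted p = 0.115). Without CR replicate 4 it was 1.25 (adjusted p = 0.0339), without replicate 4 of both diets 1.45 (adjusted p = 0.0185), and by DESeq2 1.07 (adjusted p = 0.0476). Batf3, a factor of dendritic cells, had a value of -1.43 (SE 0.77, adjusted p = 0.391). Fosl1 had 0 counts in all 8 libraries.

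The EGR and NR4A relatives had 4 of 7 genes tested and a median of 0.16 on the log2 scale. Nr4a3, from the same receptor family as Nr4a1, was at 0.847, 0.613, 0.655 and 0.101 CPM in AL and at 4.66, 2.84, 3.03 and 0.444 CPM in CR. Replicate 4 was the lowest library of both diets for Nr4a3, in contrast to Nr4a1, for which it was the highest. Nr4a3 had a log2 fold change of 2.32 (SE 0.71, 95% interval 0.77 to 3.88, adjusted p = 0.117). It was called by DESeq2 (2.33, adjusted p = 0.0231), without CR replicate 4 (2.68, adjusted p = 0.0175) and without replicate 4 of both diets (2.302, adjusted p = 0.0156). It was also called by edgeR with replicate number as a block (2.25, adjusted p = 0.0161), and its fitted value was -0.57 with the parotid covariate (adjusted p = 0.911). Nr4a2, the remaining member of that family, was at 32.5, 25.8, 23.5 and 15.9 CPM in AL and at 28.8, 35.3, 46.8 and 30.1 CPM in CR, with a log2 fold change of 0.53 (SE 0.23, adjusted p = 0.276).

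In the IER and DUSP relatives, 7 of 10 genes were tested and the median log2 fold change was 0.03. Dusp2, a phosphatase of immune cells, was at 1.23, 1.96, 1.6 and 1.22 CPM in AL and at 0, 0.355, 0.557 and 0.222 CPM in CR, with no overlap between diets. The log2 fold change of Dusp2 was -2.36 (SE 0.69, edgeR adjusted p = 0.105), and by DESeq2 it was -2.39 (adjusted p = 0.0242). Summed markers of T cells, in which Dusp2 is known to be expressed, were 1.62 to 8.52 CPM in AL and 0.777 to 1.72 in CR, those of macrophages 92.7 to 251 and 57.3 to 106, and those of B and plasma cells 12.5 to 37.1 and 6.06 to 12.6. Their part in the result was not tested, and fewer cells of a type and less RNA per cell cannot be told apart in bulk tissue. Dusp14 had a value of 0.97 (SE 0.51, adjusted p = 0.38).

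Of 28 tested genes among 37 other primary response genes, 4 (14.3%, beside 16.7% of all genes) had an unadjusted p under 0.05, all higher in CR, and the median log2 fold change was 0.12. Hbegf, an EGF receptor ligand, stood at 3.46, 2.14, 3.79 and 3.14 CPM in AL and at 4.52, 4.85, 7.36 and 5.71 CPM in CR, without overlap (log2 fold change 0.84, SE 0.29, edgeR adjusted p = 0.154). Trib1, a pseudokinase, averaged 42.4 ± 8.55 CPM in AL and 67.3 ± 22.3 in CR (SD, n = 4 each; log2 fold change 0.67, SE 0.25, adjusted p = 0.189). Trib1 was called without CR replicate 4 (0.83, adjusted p = 0.047) and with replicate number as a block (0.63, adjusted p = 0.0294). With the parotid covariate it had a value of -0.02 (adjusted p = 0.995).

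The regulators that switch immediate early genes on were examined as the 2 remaining lists. The SRF and CREB list had 11 of 12 genes tested, a median of -0.03, and 3 (27.3%, beside 16.7% of all genes) with an unadjusted p under 0.05, all lower in CR. The diets did not overlap for 1 of the 11 (9.09%, beside 9.79% of all genes), which was Srf. It stood at 17.4, 22.2, 17.0 and 17.5 CPM in AL and at 11.9, 9.58, 15.2 and 12.2 CPM in CR, and every CR library was below every AL library. Its log2 fold change was -0.60 (SE 0.19, unadjusted p = 0.00857, adjusted p = 0.131), and that of its partner Elk3 was -1.22 (SE 0.44, adjusted p = 0.179). In the MAP kinase cascade 18 of 20 genes were tested, with a median of -0.07. Rps6ka1, a kinase downstream of ERK, averaged 6.65 ± 0.874 CPM in AL and 10.1 ± 1.09 in CR (log2 fold change 0.60, SE 0.20, adjusted p = 0.151), and Map2k7, a kinase upstream of JNK, 14.0 ± 2.02 and 18.5 ± 2.29 CPM (0.40, SE 0.18, adjusted p = 0.291); neither overlapped between diets.

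**Figure D4:**
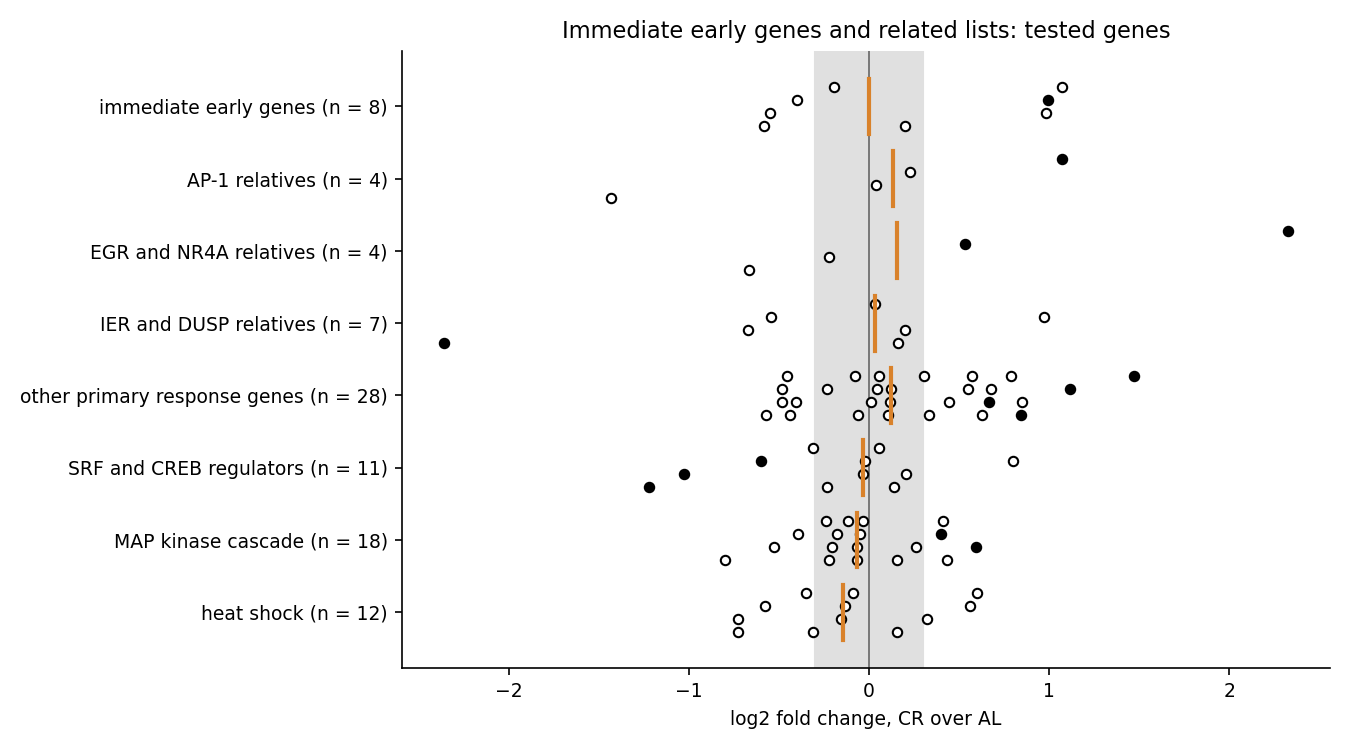
Log2 fold change, CR over AL (x axis), of every tested gene in the immediate early, related and heat shock lists (rows); points are genes, filled at an unadjusted p under 0.05, orange bars are list medians and the grey band holds the middle 50% of all tested genes. Medians lie between -0.15 and 0.16, and no point passed the adjusted threshold.

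Heat shock genes, which tissue handling can also induce, gave 0 of 12 calls by edgeR and 0 at an unadjusted p under 0.05, beside 1.98% and 16.7% of all genes, with a median log2 fold change of -0.15. Hsph1 had a value of -0.73 (SE 0.36, adjusted p = 0.344) and Bag3 one of 0.56 (SE 0.26, adjusted p = 0.312). Their summed level was 748 to 942 CPM in AL and 584 to 893 CPM in CR, so the diets overlapped. Most of that sum is Hsp90ab1 (633 and 595 CPM on average), and over the list 4 genes were fitted higher and 8 lower in CR. Fibroblast and endothelial markers, from 2 cell types in which immediate early genes are readily induced, also overlapped as sums, at 100 to 155 and 111 to 174 CPM for fibroblasts and 11.1 to 20.3 and 17.2 to 23.7 CPM for endothelial cells. The fibroblast sum is mostly Dcn (109 ± 18.6 and 127 ± 29 CPM), while the other 3 markers were fitted lower in CR, with log2 fold changes of -0.65 for Pdgfra, -0.98 for Lum (unadjusted p = 0.00906) and -1.04 for Dpt (unadjusted p = 0.00374, no overlap), all with an adjusted p of 0.0916 or more. Adipocyte markers did not, with 7.28 to 17.5 CPM in AL and 22.8 to 90.2 in CR. The summed neutrophil and mast cell list was 4.69 to 10.5 and 1.01 to 3.77 CPM, mostly from the mast cell genes Cpa3 (4.52 ± 1.92 and 1.55 ± 0.504 CPM) and Cma1 (2.71 ± 1.28 and 0.782 ± 0.762 CPM), while the neutrophil genes S100a8 and S100a9 had at most 5 counts in a library and overlapped. Every marker of these lists had a count in at least 1 library, and their part in the members' values was not tested.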

How the data were processed

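RNA 3′ ends of 8 LGs, 4 AL and 4 CR, were sequenced (Lexogen QuantSeq 3′ FWD, 75-base single reads). The deposited table holds raw counts per gene, for which the authors used cutadapt for trimming, STAR for alignment to mm10 and HTSeq for counting, all on ROSALIND. The log2 values deposited by the authors are the log2 of these counts divided by the size factor of DESeq2, plus 1. Values recomputed from the counts differed by at most 0.00012, and the deposited ones were set aside.

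Of 24557 genes, 5 repeated symbols were dropped, and 11211 of the remaining 24552 passed filterByExpr. The diets were compared in R 4.3.3 with edgeR 4.0.16 (RLE factors, quasi-likelihood F tests, Benjamini-Hochberg adjustment over all genes tested), and a call needed an adjusted p below 0.05 together with a 1.5-fold change. The biological coefficient of variation was 34.7%. Genes under the filter were compared by exact permutation tests. For levels on the log2 scale 0.5 was added to the CPM. The script was tested on simulated data. The sources used here mention no molecular identifiers, and the floor therefore reflects error of counting alone. The study describes 4 mice per diet, and the labels do not tie a library to an animal.

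The members and lists were chosen with earlier results of these data known. Named are all members and the 5 genes most like the members' mean. In each of the 6 related lists and the heat shock list, the 2 genes with the smallest p and any called gene are named. From the marker lists and the heat shock list, the gene with the highest level and genes a result turns on are named. Others are said to be chosen after their values were seen. The markers with the highest level in their lists were Obp1a (LG), Bpifa2 (parotid gland), Cd3d (T cell), Jchain (B and plasma cell), C1qa (macrophage), Cpa3 (neutrophil and mast cell), Dcn (fibroblast), Egfl7 (endothelial cell), Acta2 (smooth muscle), Krt14 (myoepithelial), Cfd (adipocyte), Acta1 (skeletal muscle) and Mbp (Schwann cell). Summed levels in AL and CR of the lists not given elsewhere were 68.2 to 102 and 36.4 to 68.3 CPM for smooth muscle and pericytes, 19.7 to 31.4 and 14.5 to 23.1 for myoepithelial and basal cells, and 9.68 to 19.8 and 12.4 to 19.7 for Schwann cells. Positions are from GENCODE vM21 (GRCm38). Alternatives were other size factors, DESeq2 1.42.0, limma 3.58.1 voom, robust dispersions, other filters, no fold threshold, a replicate block, left-out libraries (CR replicates 2 and 4 together after seeing the data), a parotid covariate and removal of the 50 most counted genes.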

Additional observations from a re-analysis of the deposited data

Results flagged for a closer look

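Among 20 groups of 4 libraries tested for a value far from the rest, 1 stood out, and chance gives about 1 in 20. It was Fosb in AL, where replicate 3 had 0.0728 CPM, which is 1 count, and the other 3 libraries had 0, so that the gap was the whole range (ratio 1). The value lies under the floor of 3 counts.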

How the results depend on the processing

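Of 167 log2 fold changes of members under 21 alternatives, 157 kept their direction and their side of the threshold. The exceptions were 5 calls of Ier3 and 5 reversals. Those under the parotid covariate were Atf3 at 0.021 (edgeR adjusted p = 0.996) and Ier2 at 0.173 (adjusted p = 0.963). Those without CR replicates 2 and 4, added after seeing the data, were Jun at 0.097 (adjusted p = 0.869), Junb at -0.088 (adjusted p = 0.915) and Nr4a1 at -0.764 (adjusted p = 0.754). The number of members called was 1, Ier3, under DESeq2, limma voom, the replicate block, without CR replicate 4 and without CR replicates 2 and 4, and 0 otherwise, from 0 to 1 with each library left out. The median log2 fold change of the members, 0.002 as reported, was -0.373 without CR replicates 2 and 4, and under the other alternatives ran from -0.198 with at least 10 counts in every library, which drops Nr4a1, to 0.301 with the parotid covariate (all genes -0.009), within 0.327, the SD between libraries of the members' mean log2 level. All genes called numbered 222 as reported, 729 by DESeq2, 397 by limma voom, 436 without a filter, 656 without replicate 4 of both diets, 449 without CR replicates 2 and 4, 0 with the parotid covariate and 61 to 700 with each library left out, the most without CR replicate 4 and the fewest without AL replicate 2. The causes were not tested.

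The labels do not say that the replicate numbers pair the samples. Correlations of same-numbered deviations were 0.1821, 0.0995, 0.2784 and 0.5068. The same-numbered CR library was the best match for AL replicates 1, 2 and 4, whereas AL replicate 3 correlated better with CR replicate 1 (0.375). Whether same-numbered libraries were handled together was not tested. With the replicate block 700 genes were called, 6.24% of those tested; Ier3 was called at 0.99 (adjusted p = 0.0185), and of the related genes Nr4a3 at 2.25 (adjusted p = 0.0161) and Trib1 at 0.63 (adjusted p = 0.0294). Fos, fitted with no filter on low counts, had a log2 fold change of -0.54 (edgeR adjusted p = 0.821).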

Other observations

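Of the 93 related genes, 21 were below the count filter, and 4 of these (Fosl1, Egr4, Npas4 and Il6) had 0 counts in all 8 libraries. For the remaining 17 the diets were set against each other in two-sided exact permutation tests, and the genes given here were chosen after their values were seen. Egr2, a relative of Egr1, gave 4, 3, 14 and 8 counts in AL and 0, 1, 0 and 1 in CR (exact permutation p = 0.0286, the smallest p possible, 0.243 after adjustment over 17 genes). Cyr61, a matricellular protein gene and a target of SRF cofactors, had 4 counts over the 4 AL libraries and 36 over the 4 CR libraries. The highest AL and the lowest CR library tied at 3 counts, the floor, and differed only after scaling, at 0.152 and 0.212 CPM (exact permutation p = 0.0286, adjusted 0.243). The 2 genes went in opposite directions. Both had the smallest p that the design allows, so their not passing the adjustment over 17 genes decides nothing about either.

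Klf10, a zinc finger gene induced by TGF-beta, was also picked after its values were seen: it stood at 2.31, 2.45, 1.53 and 7.6 CPM in AL and at 2.12, 19.6, 8.41 and 8.99 CPM in CR, with a log2 fold change of 1.47 (SE 0.60, edgeR adjusted p = 0.234). The value was 0.90 without CR replicate 2 (adjusted p = 0.586), 2.21 without AL replicate 4 (adjusted p = 0.0801) and 2.25 without replicate 4 of both diets (adjusted p = 0.0437, past the threshold). As for Dusp1, CR replicates 2, 3 and 4 exceeded every AL library and CR replicate 1 did not.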
